A study of Rattus norvegicus with 28 samples.

Results

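Lpl, Cd36, Fabp3, Acsl1, Cpt1a, Cpt1b, Slc25a20 and Cpt2 carry fatty acids from circulating lipid into the cardiomyocyte and on into the mitochondrion. They were chosen by gene symbol from the RNA table, 8 of 11383 listed genes, and all 8 passed the filter on low values that left 11033 genes tested. The RNA came from cardiomyocytes, the contractile cells of the heart, isolated from rats aged 6 to 8 months and kept in culture for 48 hours. One group of 3 libraries came from cells given an adenovirus with an shRNA against desmin (shDesmin AdV), and the other group of 3 from cells given a null adenovirus (Null AdV). Both groups therefore carry adenovirus, but the controls of the RNA are not labelled as carrying an shRNA, although the general protocol names a scrambled one, so depletion of desmin and the presence of an shRNA cannot be told apart. Whether the 3 libraries of a group stem from different animals or dishes is not stated, so p-values measure only the spread between them, which may be technical. The series also holds 22 Lamin B ChIP and input libraries, of which only the authors' list of lamina-associated domains (LADs) in cells given a scrambled shRNA is used here. Desmin forms the intermediate filaments of the muscle cell, and the study's title names a balance of such filaments with microtubules that keeps up the nucleus.

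The adult heart draws most of its energy from fatty acids. Lipoprotein lipase (Lpl) releases them from triglyceride-rich particles at the vessel wall, the membrane receptor Cd36 takes them up, and the cytosolic binding protein Fabp3 carries them. Acyl-CoA synthetases, of which Acsl1 is the main form in heart, trap them as acyl-CoA. The inner mitochondrial membrane does not pass acyl-CoA, so carnitine palmitoyltransferase 1 at the outer membrane makes acylcarnitine, the carrier Slc25a20 exchanges it for carnitine, and Cpt2 on the inner side restores acyl-CoA for beta-oxidation. Carnitine palmitoyltransferase 1 is the step that malonyl-CoA inhibits, and it has a muscle form, Cpt1b, and a liver form, Cpt1a, which is also made in fetal heart.

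On the deposited scaling, the genes at both ends of the path rose and the step between them split. Fabp3 was 7.30-fold, Lpl 6.90-fold and Cd36 4.45-fold higher in shDesmin RNA than in Null RNA, and inside the mitochondrion Slc25a20 was 2.63-fold and Cpt2 2.16-fold higher. Acsl1 (1.61-fold) and Cpt1b (1.17-fold) rose less, and Cpt1a fell to 63.6% of its Null level. By limma with Benjamini-Hochberg adjustment over all tested genes, 7 of the 8 were called higher and 1 lower, where 27.5% of all tested genes were called higher and 31.4% lower. The median log2 fold was 1.25 over the 8 genes and -0.04 over all tested genes. That of tested genes differed with level. In 10 bins by mean level, the median was -0.24 in bin 1 (lowest), 0.16 in bin 9 and 0.46 in bin 10 (highest). Of the 8 genes, 6 were in bin 10 and 1 in bin 9, so the values over all tested genes are not matched for level. In none of the 8 did the shDesmin and Null libraries overlap, as in 64.9% of all tested genes. In bulk RNA, a change in the number of cells that express a gene and a change in RNA per cell cannot be told apart.

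Only the directions of Lpl, Fabp3, Cd36 and Cpt1a were the same in every scaling of the libraries that was tried. Slc25a20 and Cpt2 stayed higher under the other 4 scalings with no marker genes (median centring, quantile normalization, and library totals with and without mitochondrial genes). Acsl1 and Cpt1b did not keep their calls. With libraries scaled to their totals, which moves the median of all genes by -0.71 on the log2 scale, Acsl1 stood at -0.020 (limma adjusted p = 0.90) and Cpt1b at -0.48 (limma adjusted p = 0.0028). With quantile normalization Acsl1 stood at 0.089 (limma adjusted p = 0.51) and Cpt1b at -0.40 (limma adjusted p = 0.0019). The deposited scale factors ran from 0.732 to 0.834 in the shDesmin libraries and from 1.17 to 1.42 in the Null libraries, so the choice bears on every gene of this comparison.

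Cardiomyocyte markers moved with the groups too. All 10 listed members of an 11-gene marker list, such as Myh6 and Tnnt2, were called higher, and their summed level ran from 82024 to 96264 CPM (read counts scaled to library size as deposited) in shDesmin libraries and from 26973 to 34213 CPM in Null libraries. Set against these markers within each library, a scaling added after the data were seen, Fabp3 was 2.55-fold (limma adjusted p = 6.2e-07), Lpl 2.41-fold (limma adjusted p = 1.1e-05) and Cd36 1.55-fold higher (limma adjusted p = 0.027). On that scale Slc25a20 stood at -0.13 (log2 fold, limma adjusted p = 0.27), and Cpt2 fell 1.33-fold, Acsl1 1.78-fold, Cpt1b 2.44-fold and Cpt1a 4.51-fold. This scaling moves the median of all genes by -1.52, and 152 of all tested genes were then higher and 9679 lower. Fabp3 had 24.2, 27.6 and 26.3 reads per 1000 marker reads in shDesmin libraries, against 9.56, 10.4 and 10.7 in Null libraries. Whether the marker genes changed within cells or with the makeup of the cultures was not tested.

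**Figure D1:**
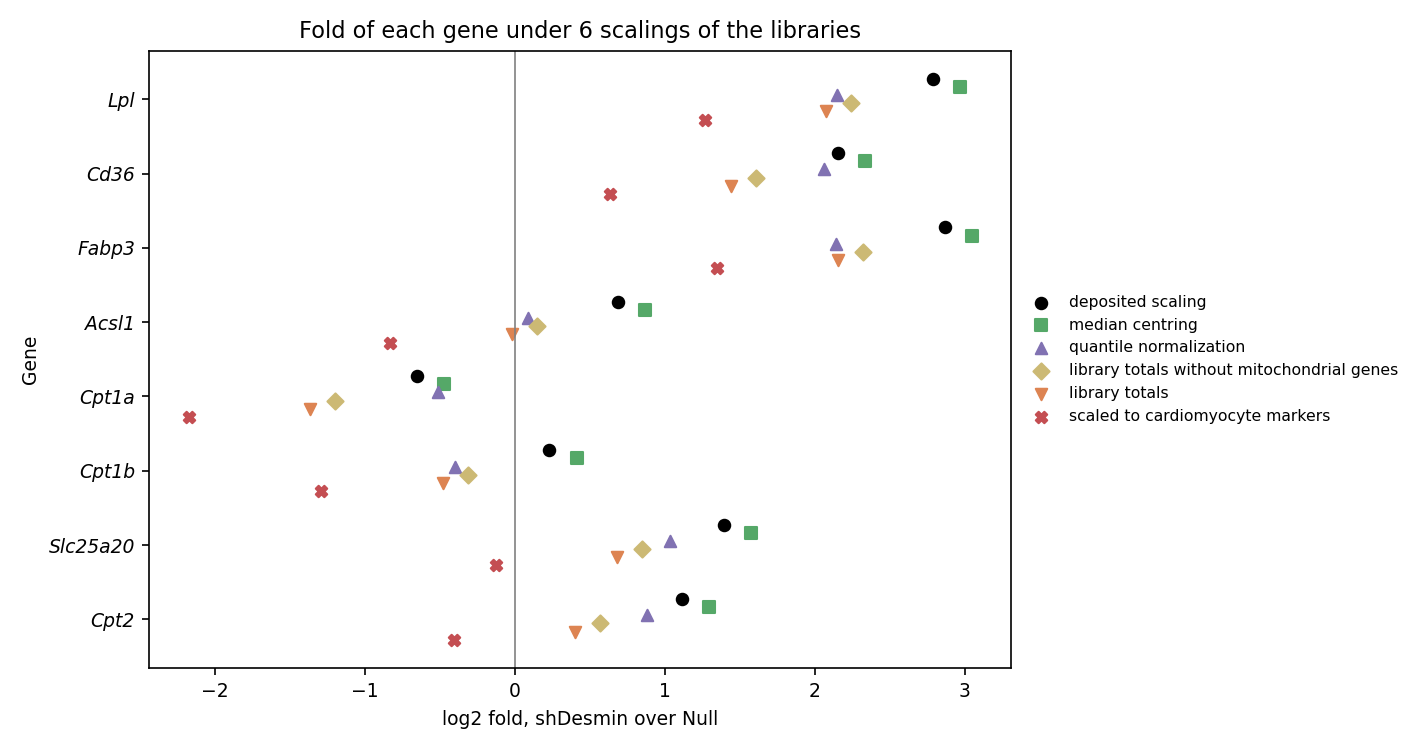
log2 fold of shDesmin over Null RNA (x axis) for the 8 genes (rows) under 6 scalings of the libraries (symbols). Fabp3, Lpl and Cd36 lie right of 0 and Cpt1a left of 0 under each of them, whereas Acsl1 runs from -0.83 to 0.87 and Cpt1b from -1.29 to 0.41.

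The targeted gene was lower in every shDesmin library. Des had 549.7, 559 and 641 CPM in shDesmin libraries and 6099, 5975 and 6218 CPM in Null libraries (limma adjusted p = 7.3e-09). Reads over all listed genes numbered 9168307 to 9817421 in shDesmin libraries and 8724543 to 10908458 in Null libraries. The 8 genes took from 0.390 to 0.407% of these reads in shDesmin libraries and from 0.166 to 0.203% in Null libraries. This share does not stand for each gene, as Fabp3 and Lpl had the most reads of the 8 in shDesmin libraries. In replicate 1, Fabp3 had 15885 reads in the shDesmin and 3358 in the Null library, and Lpl 9776 and 2644. Acsl1 had 3810 and 4367 there, and Cpt1b 3546 and 5222. Mitochondrially encoded genes took 35.0 to 39.1% of reads in shDesmin libraries and 24.7 to 34.5% in Null libraries. Markers of other cells that handle fatty acids were also measured. Of 8 adipocyte markers 7, among them Adipoq and Plin1, were not among the listed genes, and the remaining one, Pck1, ran from 1.25 to 3.88 CPM in shDesmin libraries and from 0.633 to 1.30 CPM in Null libraries. Of 9 macrophage markers 6 were not among the listed genes, and the other 3 summed to 3.73 to 4.99 CPM in shDesmin libraries and 17.0 to 17.7 CPM in Null libraries. Endothelial markers (9 of 10 listed, without Pecam1) summed to 284 to 428 CPM in shDesmin libraries and 154 to 256 CPM in Null libraries, with 5 called higher and 1 lower. Fibroblast markers (3 of 8 listed) summed to 15.2 to 24.5 CPM in shDesmin libraries and 2.83 to 9.67 CPM in Null libraries, with all 3 called higher. Pericyte and smooth muscle markers (6 of 8 listed) summed to 231 to 518 CPM in shDesmin libraries and 154 to 259 CPM in Null libraries, with 4 called higher and 1 lower. No listed marker had 0 reads in a library. The part of these cells in the levels of Cd36 and Lpl, which endothelial cells, macrophages and adipocytes also make, was not tested.

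The sequences just before the start sites of 4 of the genes are shown because they stand for the largest rise (Fabp3), the membrane step (Cd36), the inner membrane step (Cpt2) and the single fall (Cpt1a). They are the 250 bases before each start, 5′ to 3′ on the gene's strand, from RefSeq on build GRCr8, which is not the build of the RNA table. The windows are chr5:147935875-147936124 (plus strand) for Fabp3, chr4:18246332-18246581 (plus strand) for Cd36, chr5:127910819-127911068 (minus strand) for Cpt2 and chr1:209995910-209996159 (plus strand) for Cpt1a. Capitals mark matches, on either strand, to the TATA box spelled TATAAA, the box named for its letters CCAAT, or the GC box spelled GGGCGG, elements added to the search after the sequences were seen.
Fabp3: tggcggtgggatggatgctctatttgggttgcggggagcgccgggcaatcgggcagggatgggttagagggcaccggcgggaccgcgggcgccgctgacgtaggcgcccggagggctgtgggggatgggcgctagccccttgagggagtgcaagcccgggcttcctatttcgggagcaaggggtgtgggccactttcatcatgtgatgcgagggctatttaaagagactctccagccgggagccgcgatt
Cd36: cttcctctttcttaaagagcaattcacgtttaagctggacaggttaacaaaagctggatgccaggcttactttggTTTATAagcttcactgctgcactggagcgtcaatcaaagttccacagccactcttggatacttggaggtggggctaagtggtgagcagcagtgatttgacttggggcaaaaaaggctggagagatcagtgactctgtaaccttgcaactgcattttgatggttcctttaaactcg
Cpt2: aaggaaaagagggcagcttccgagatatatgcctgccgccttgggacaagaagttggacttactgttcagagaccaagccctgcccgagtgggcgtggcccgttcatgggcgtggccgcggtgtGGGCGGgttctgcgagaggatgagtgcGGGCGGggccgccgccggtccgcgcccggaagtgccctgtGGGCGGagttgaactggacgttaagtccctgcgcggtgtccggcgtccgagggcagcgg
Cpt1a: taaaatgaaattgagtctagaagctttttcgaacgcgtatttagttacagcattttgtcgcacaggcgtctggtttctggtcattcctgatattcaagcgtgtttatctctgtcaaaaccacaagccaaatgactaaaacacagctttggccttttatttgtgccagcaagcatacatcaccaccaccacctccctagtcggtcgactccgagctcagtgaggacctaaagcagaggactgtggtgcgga

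Of the 8 genes, 6 had an entry in this table. Their windows differed widely in base composition, with 66.8% G or C for Cpt2, 65.6% for Fabp3, 56.4% for Slc25a20, 45.6% for Cd36 and for Cpt1a, and 40% for Acsl1, beside a median of 51.2% over 33469 windows. GC boxes lay in Cpt2 (3 matches) and Slc25a20 (2 matches), which 30.5% of all windows also hold. Cd36 had a TATA box match on the minus strand at positions -175 to -170 from the start (12.9% of all windows hold one), and Acsl1 a CCAAT box match (34.0%). The element AGGTCA, of which PPAR and RXR receptors bind a pair spaced by 1 base, had no exact match in any of the 6 windows, where 14.1% of all windows hold one on either strand. The spaced pair itself occurs in 0.0508% of all windows, and TCAAGGTCA, the element of ERR receptors, which contains AGGTCA, in 0.388%. No match says only that these letters are not in these windows.

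**Figure D2:**
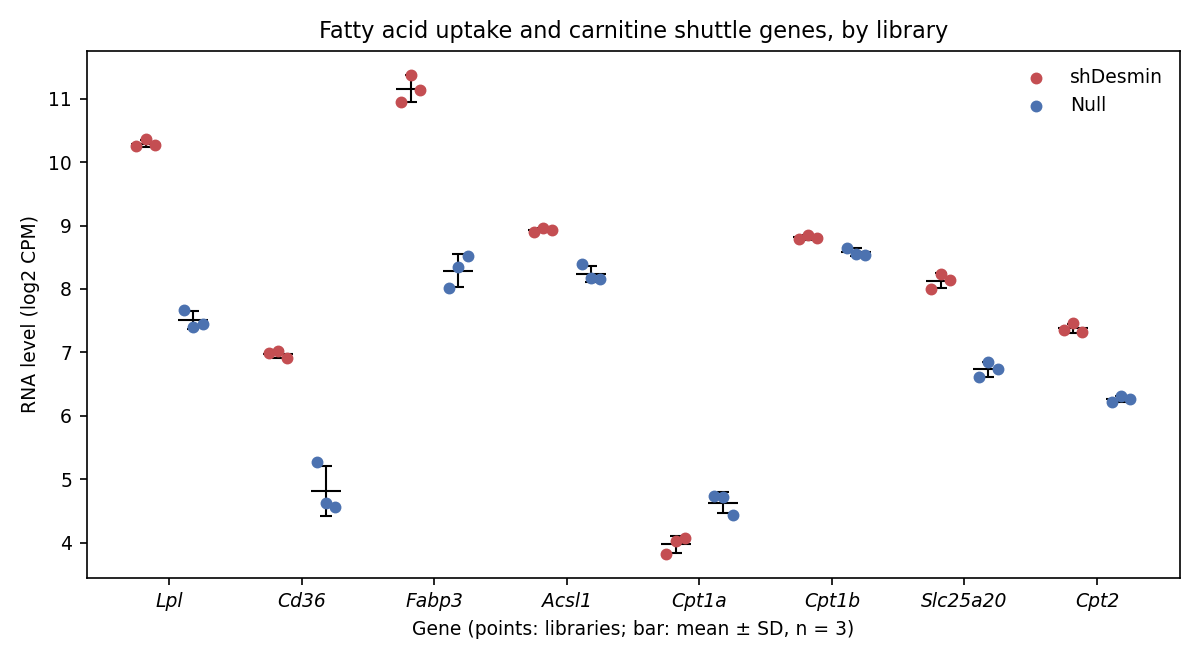
RNA level of each of the 8 genes in log2 CPM (y axis) in the 3 shDesmin libraries (red, left) and the 3 Null libraries (blue, right), each point a library and bars mean ± SD. The libraries of the groups do not overlap for any gene, and Cpt1a is the gene whose shDesmin libraries lie below its Null libraries.

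On the deposited scaling, the uptake and binding genes Lpl, Fabp3 and Cd36 had larger changes than the other 5 genes, whereas against cardiomyocyte markers Cpt1a had the largest of the 8. Lpl (ENSRNOG00000012181, rn6 chr16:22537056-22561496) had 1219.6, 1316 and 1229 CPM in shDesmin libraries and 203, 169 and 175 CPM in Null libraries. The lowest shDesmin library stood 2.59 on the log2 scale above the highest Null library. The log2 fold was 2.79 (SE 0.10, 95% interval 2.58 to 3.00, limma adjusted p = 1.2e-08), which placed Lpl at rank 48 of the rises among 11033 genes. Over all other settings except marker scaling, the lowest log2 fold of Lpl was 2.08.

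Fabp3 (ENSRNOG00000012879, rn6 chr5:148528725-148535565) had 1982, 2660.4 and 2263 CPM in shDesmin libraries and 258, 325 and 366 CPM in Null libraries. Every shDesmin library thus lay far above every Null library, although both groups spread more than for Lpl (SD 0.21 in shDesmin and 0.26 in Null libraries, log2 CPM, n = 3 each). Its log2 fold of 2.87 (SE 0.14, 95% interval 2.56 to 3.18, limma adjusted p = 1.1e-07) was rank 41 of the rises. The interval of Fabp3 in the table overlaps that of Zcchc17 at its end, and how reads there were divided is not given in the sources used here.

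Cd36 (ENSRNOG00000040108, rn6 chr4:14001761-14249718) had 128, 130 and 120.1 CPM in shDesmin libraries and 38.6, 24.7 and 23.6 CPM in Null libraries. Replicate 1 of the Null libraries was the high one, and it gave Cd36 the widest spread of the 8 genes (SD 0.06 in shDesmin and 0.39 in Null libraries, log2 CPM, n = 3 each). The log2 fold was 2.15 (SE 0.16, 95% interval 1.80 to 2.51, limma adjusted p = 1.3e-06), or 2.38 without Null replicate 1. Within each library, the ratio of Lpl to Cd36 reads was 1.55-fold higher in shDesmin RNA than in Null RNA.

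On the deposited scaling, the synthetase gene Acsl1 changed less than the uptake genes. Acsl1 (ENSRNOG00000010633, rn6 chr16:48937456-49003246) had 475, 500.3 and 487 CPM in shDesmin libraries and 335, 289 and 284 CPM in Null libraries. The groups were apart, with the shDesmin libraries close to each other (SD 0.04, log2 CPM, n = 3) and Null replicate 1 again above its group. The log2 fold was 0.69 (SE 0.09, 95% interval 0.49 to 0.90, limma adjusted p = 8.0e-05), a call that was lost under both scalings by totals and under quantile normalization. Relative to Acsl1 in the same library, Fabp3 reads were 4.52-fold higher in shDesmin RNA, a ratio that scaling by 1 factor per library leaves as it is.

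At the carnitine step the isoforms went different ways on the deposited scaling. Cpt1b (ENSRNOG00000010438, rn6 chr7:130395194-130405347) had 442, 461 and 444 CPM in shDesmin libraries and 401, 375 and 371 CPM in Null libraries. The groups were 0.14 apart on the log2 scale, the narrowest gap of the 8 genes. Its log2 fold of 0.23 (SE 0.08, 95% interval 0.05 to 0.42, limma adjusted p = 0.032) lost its call without any library other than Null replicate 1, and turned negative under library totals and quantile normalization. The interval of Cpt1b overlaps that of Chkb, a choline kinase gene, at its end.

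Cpt1a (ENSRNOG00000014254, rn6 chr1:218569510-218629678) had 14.2, 16.3 and 16.9 CPM in shDesmin libraries and 26.5, 26.3 and 21.6 CPM in Null libraries, from 109 to 345 reads a library. All 3 shDesmin libraries were below the lowest Null library, Null replicate 3. The log2 fold was -0.65 (SE 0.14, 95% interval -0.95 to -0.35, limma adjusted p = 0.0018), and it ran from -1.36 to -0.47 over all other settings except marker scaling. Compared with Cpt1b in the same library, Cpt1a reads were lower in every shDesmin library: the ratio was 0.0320, 0.0354 and 0.0379 in shDesmin libraries and 0.0662, 0.0702 and 0.0583 in Null libraries, 1.85-fold lower in shDesmin RNA. The brain form Cpt1c also fell, with 1.06 ± 0.09 log2 CPM in shDesmin RNA and 2.44 ± 0.15 log2 CPM in Null RNA (SD, n = 3 each, limma adjusted p = 0.00044). Cpt1c was at a low level, so the size of its fall is less certain.

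The inner membrane steps rose together on the deposited scaling, but not against cardiomyocyte markers (log2 fold -0.13 for Slc25a20 and -0.41 for Cpt2). Slc25a20 (ENSRNOG00000020288, rn6 chr8:117455262-117476734) had 256, 301 and 284 CPM in shDesmin libraries and 97.7, 115 and 107 CPM in Null libraries. The groups lay more than 1 apart on the log2 scale, with SDs of 0.12 in each. The log2 fold was 1.39 (SE 0.10, 95% interval 1.18 to 1.61, limma adjusted p = 8.6e-07). Cpt2 (ENSRNOG00000012443, rn6 chr5:127505614-127523089) had 163, 176 and 161 CPM in shDesmin libraries and 74.6, 79.1 and 76.8 CPM in Null libraries. Among the 8 genes, the Null libraries lay closest to each other for Cpt2 (SD 0.04, log2 CPM, n = 3), and its log2 fold was 1.11 (SE 0.09, 95% interval 0.92 to 1.31, limma adjusted p = 1.7e-06). Relative to the mitochondrial genes that follow it, Cpt1b was lower in each shDesmin library. The Cpt1b to Cpt2 ratio of reads was 2.72, 2.63 and 2.76 in shDesmin libraries and 5.38, 4.74 and 4.84 in Null libraries, and the Cpt1b to Slc25a20 ratio was 1.73, 1.53 and 1.57 in shDesmin libraries and 4.10, 3.25 and 3.48 in Null libraries.

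**Figure D3:**
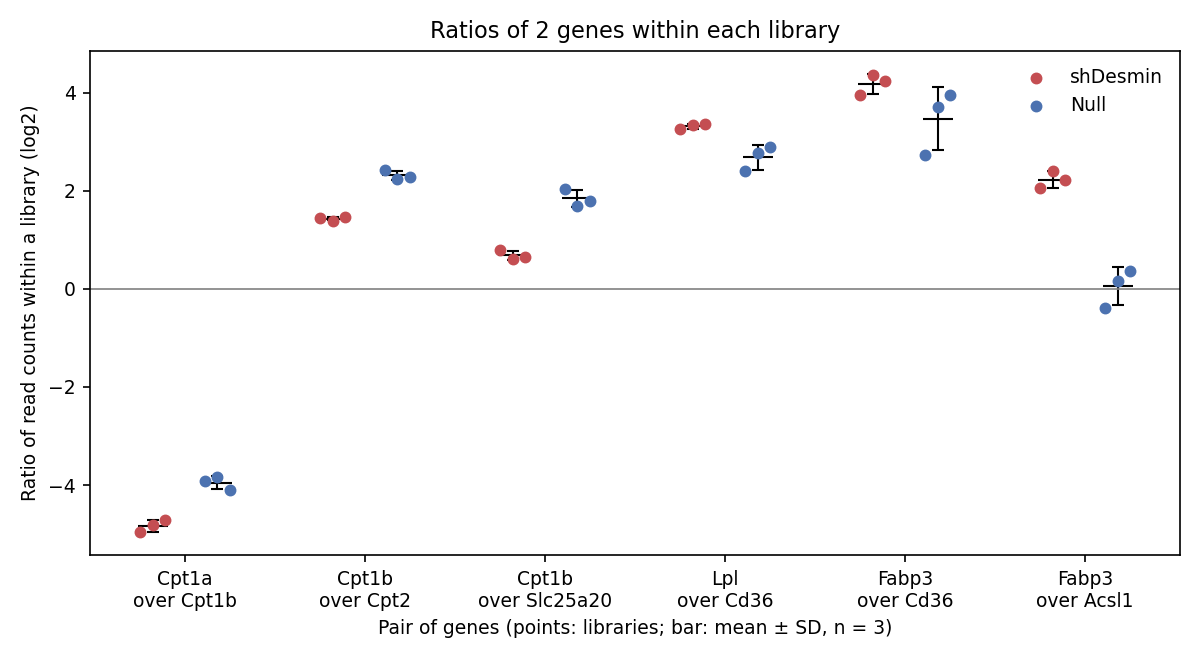
Ratio of the read counts of 2 genes within a library, on a log2 scale (y axis), for 6 pairs (x axis) in shDesmin (red, left) and Null (blue, right) libraries, with mean ± SD. The groups do not overlap for any pair, although for Fabp3 over Cd36 the lowest shDesmin value, 3.96, is next to the highest Null value, 3.95.

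A scaling by 1 factor per library leaves these ratios as they are. They still hold the length of each gene, so only their change between groups can be read. Over the 6 ratios compared, the change was -0.88 for Cpt1a over Cpt1b, -0.88 for Cpt1b over Cpt2, -1.16 for Cpt1b over Slc25a20, 0.63 for Lpl over Cd36, 0.71 for Fabp3 over Cd36 and 2.18 for Fabp3 over Acsl1 (log2, shDesmin minus Null). Each gave p = 0.10 by an exact two-sided permutation test and 0.10 after Benjamini-Hochberg adjustment over the 6, the smallest p that 3 libraries against 3 allow. Leaving out any library kept the sign of all 6 changes. The Fabp3 over Cd36 change was the least steady, from 0.35 to 0.96. Quantile normalization, which is not 1 factor per library, kept the 6 signs but moved the sizes. It gave -0.11 for Cpt1a over Cpt1b, -1.28 for Cpt1b over Cpt2, -1.43 for Cpt1b over Slc25a20, 0.086 for Lpl over Cd36, 0.076 for Fabp3 over Cd36 and 2.05 for Fabp3 over Acsl1.

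Other genes of fatty acid supply were mixed. Among 11 tested genes of uptake, binding and lipase control, 6 were higher and 3 lower (median log2 fold 0.67), and under library totals 0 were higher and 5 lower. Over all 11033 tested genes, 3036 were higher and 3459 lower on the deposited scaling, and 802 and 6892 under library totals. The counts of this list and of the lists below are to be read beside these. Got2, an aminotransferase also described as a fatty acid binding protein of the membrane, was 1.89-fold, the caveolin gene Cav1 1.95-fold and the acyl-CoA binding protein gene Dbi 1.59-fold higher. These 3 rises were not called under library totals, where their log2 folds were 0.21, 0.25 and -0.04. Under quantile normalization Got2 was not called either (0.025, limma adjusted p = 0.84), while Cav1 (0.91, limma adjusted p = 0.012) and Dbi (0.39, limma adjusted p = 0.015) were. Slc27a4, a fatty acid transport protein with acyl-CoA synthetase activity, fell 3.45-fold. Angptl4, a secreted inhibitor of lipoprotein lipase and a PPAR target, fell 1.96-fold (limma adjusted p = 8.7e-05), while Lpl itself rose. Lmf1, which matures lipases in the endoplasmic reticulum, fell 1.59-fold, a call not held under quantile normalization (limma adjusted p = 0.089) or median centring (limma adjusted p = 0.054). Gpihbp1, the endothelial anchor of lipoprotein lipase, was not among the listed genes.

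Other acyl-CoA and carnitine genes were mixed too. Of 12 tested genes of acyl-CoA synthesis and carnitine handling, 5 were higher and 3 lower (median log2 fold 0.13), or 3 and 5 under library totals. Tmlhe, the first enzyme of carnitine synthesis, was 2.57-fold, the synthetase Acsl6 2.39-fold and the carnitine acetyltransferase Crat 1.83-fold higher, the last not under library totals (limma adjusted p = 0.23). Acsl4, which prefers arachidonic acid, fell 1.78-fold, and Slc25a29, a basic amino acid carrier once described as a carnitine carrier, 1.59-fold. The Slc25a29 fall was not called under median centring (limma adjusted p = 0.075) or quantile normalization (limma adjusted p = 0.094). Of 9 tested genes of malonyl-CoA metabolism and its kinase AMPK, 6 were higher and 0 lower (median log2 fold 0.55), or 1 and 2 under library totals, with the AMPK subunit genes Prkab1 2.39-fold, Prkaa2 2.23-fold and Prkab2 2.04-fold higher. Prkab1 alone was called higher under library totals. Acacb, which makes the malonyl-CoA that acts on carnitine palmitoyltransferase 1, had a log2 fold of 0.48 (limma adjusted p = 0.0017) and of -0.23 under library totals, where it was not called. The malonyl-CoA decarboxylase gene Mlycd had a log2 fold of -0.11 (limma adjusted p = 0.37). Mlycd was called lower under library totals (-0.82, limma adjusted p = 4.5e-05), totals without mitochondrial genes (-0.65, limma adjusted p = 8.7e-05) and quantile normalization (-0.34, limma adjusted p = 0.010). Median centring gave no call for it (0.075, limma adjusted p = 0.56).

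Storage genes went both ways. Of 16 tested genes of triglyceride storage and lipolysis, 5 were higher and 5 lower, or 1 and 11 under library totals, with a median log2 fold of 0.07. Library totals made 6892 of all 11033 tested genes lower. Fitm1, a lipid droplet gene of muscle, was 5.11-fold higher, Mgll, the monoacylglycerol lipase, 2.28-fold and Abhd5, the activator of adipose triglyceride lipase, 1.84-fold, and only Fitm1 was called under library totals. The droplet coat gene Plin2 had 8.09 ± 0.08 log2 CPM in shDesmin RNA and 9.43 ± 0.02 log2 CPM in Null RNA (SD, n = 3 each) and fell 2.53-fold (limma adjusted p = 4.5e-07). The lipase inhibitor gene G0s2 fell 4.06-fold and the hormone-sensitive lipase gene Lipe 2.31-fold, so the list held a lipase and a lipase inhibitor among its falls. G0s2 was at a low level in shDesmin RNA (0.53 ± 0.25 log2 CPM, SD, n = 3), so the size of its fall is less certain.

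Beta-oxidation enzymes and the PPAR targets outside the path are given for comparison. All 14 tested beta-oxidation genes were higher on the deposited scaling (median log2 fold 1.16), where 27.5% of all tested genes were. Under library totals and under quantile normalization 11 were higher. Against cardiomyocyte markers 1 was higher and 10 were lower (median log2 fold -0.36). On the deposited scaling, the ones with the smallest adjusted p were Etfdh (2.98-fold), Acadm (3.15-fold) and Hadh (4.59-fold). Of 10 other PPAR alpha targets, 7 were higher and 2 lower. The pyruvate dehydrogenase kinase gene Pdk4 was 6.67-fold and Txnip 2.45-fold higher, and Ucp3 was 5.13-fold and Acot1 3.55-fold lower. Both falls ended at few reads, with 0.04 ± 0.63 log2 CPM for Ucp3 and -0.67 ± 0.90 for Acot1 in shDesmin RNA (SD, n = 3 each). Acot1 passed the filter through its Null libraries, and the sizes of both falls are uncertain. Textbook PPAR targets were called in both directions, for example Pdk4, Lpl and Fabp3 higher and Cpt1a, Angptl4, Plin2 and Ucp3 lower. These are examples and no tally, as more of the other PPAR alpha targets were called higher (7) than lower (2). Of 15 tested regulators 5 were higher and 1 lower, or 0 and 9 under library totals, where 802 of all 11033 tested genes were higher and 6892 lower. Ppargc1a (2.22-fold), Esrrg (1.61-fold) and Rxrg (1.38-fold) were higher, none of them under library totals. Klf15, a transcription factor gene of heart lipid metabolism, fell 5.70-fold. Its level in shDesmin RNA was low (0.30 ± 0.47 log2 CPM, SD, n = 3), so the size of this fall is less certain. Ppara had a log2 fold of -0.59 (limma adjusted p = 0.071). It was called lower under library totals (-1.30, limma adjusted p = 0.0025) and totals without mitochondrial genes (-1.13, limma adjusted p = 0.0033). Quantile normalization (-0.44, limma adjusted p = 0.14) and median centring (-0.41, limma adjusted p = 0.19) gave no call for Ppara. These counts follow the scaling, and against cardiomyocyte markers 4 of these list genes were higher and 68 lower.

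**Figure D4:**
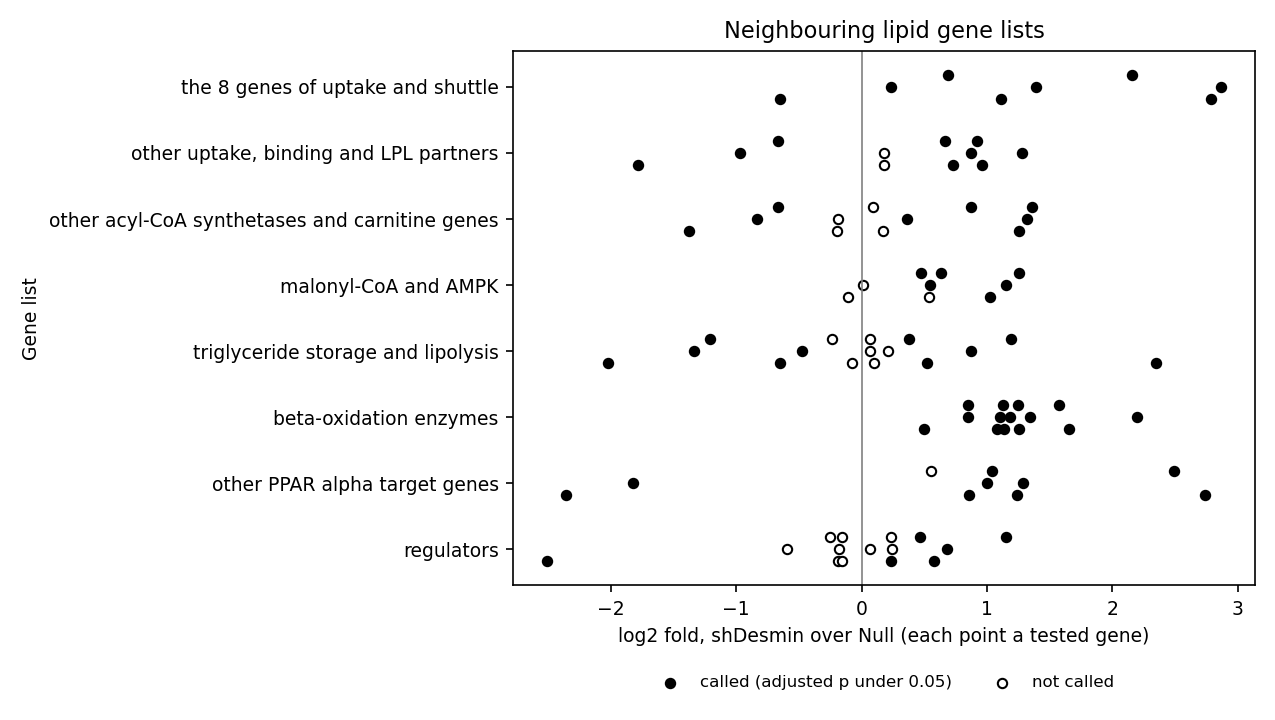
log2 fold of shDesmin over Null RNA (x axis) of every tested gene of the 8-gene path and of 7 lists of neighbouring lipid genes (rows), filled where limma's adjusted p was under 0.05. On the deposited scaling shown, all 14 beta-oxidation genes lie right of 0, while storage genes and regulators lie on both sides.

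The genes whose pattern over the 6 libraries came closest to each of the 8 were found by the Euclidean distance between centred log2 CPM profiles, among 6798 named genes with a mean of at least 3 log2 CPM. The closest to Lpl were Efnb3 (distance 0.33) and Myh4 (0.39), and to Fabp3 Wfdc1 (0.20) and Sh3kbp1 (0.24). Cd36 was nearest to Igsf1 (0.15) and Ccdc141 (0.16), and Acsl1 to Msrb3 (0.07) and Capza2 (0.08). For Cpt1a the nearest were Ehbp1 and Polr3f (0.15 each), and for Cpt1b the microtubule end-binding gene Mapre1 (0.07) and the mitochondrial fusion gene Mfn1 (0.08). Slc25a20 lay closest to the beta-oxidation gene Eci2 (0.11) and to Fkbp4 (0.13), and Cpt2 to the complex I gene Ndufa10 (0.05) and Rabgap1l (0.06). Where the groups lie apart, this distance mostly follows the difference in fold. Like folds, such as log2 2.79 for Lpl and 2.78 for Efnb3, were therefore built into the choice.

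None of the 8 genes lay in a LAD of control cells. In the authors' list, the union of 3 control replicates of Lamin B ChIP, each with an input, on rn6, no interval touched any of the 8, where 4.72% of 11005 tested genes overlapped a LAD and 3.96% had at least 50% of their length in one. Lpl was the nearest, 124 kilobases from a LAD of 430 kilobases (rn6 chr16:22685401-23115599). Cd36 lay 187 kilobases from a LAD of 2781 kilobases (rn6 chr4:11033401-13814399), and Cpt1b 237 kilobases from one. The other 5 were between 1487 kilobases (Slc25a20) and 8104 kilobases (Fabp3) away. The median distance was 1546 kilobases for the 8 genes and 823 kilobases for all tested genes. LADs of shDesmin cells were not analysed here, so these positions say nothing of a change.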

How the data were processed

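Levels came from the deposited table of log2 CPM, which the authors scaled per library. Trimmomatic 0.32, STAR 2.6.0c and featureCounts, then limma and edgeR, are listed with build rn6 in the submitters' processing notes, with no roles. With the log2 undone, values are whole multiples, offset by 0.5, of what 1 read is worth in that library. All values (100%) gave whole reads within 0.001, and the constant that all libraries share was removed so that the scale factors have a geometric mean of 1. The limit that 0 reads allow (3 reads) is 0.230 to 0.447 CPM, for counting error only. Between replicates, chi-square divided by its degrees of freedom was 5.13 to 37.4, more than sampling noise. The authors' deposited table of fold (a signed ratio), score (moderated t) and p-values served as an alternative.

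The test took genes over 0 log2 CPM in 3 or more of the 6 libraries. It used limma 3.58.1 in R 4.3.3 (eBayes with trend, group as the only term, two-sided, Benjamini-Hochberg threshold 0.05). This step was tested on simulated data, in which far fewer genes changed than were called here. The 8 genes and the lists were chosen with earlier results of these data known. Genes named are the 8, Des, up to 3 called genes per direction of each list by adjusted p, and the 2 nearest profiles of each of the 8. One gene that this rule names is not reported here. Acacb, Mlycd, Ppara, Gpihbp1 and the list markers were named after their values were seen. Alternatives covered filter, pseudocount, scaling, variance model, library weights, voom weights, replicate block and each library left out. Python 3.11.15, pandas 2.3.3, scipy 1.17.1 and matplotlib 3.10.9 were used.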

Additional observations from a re-analysis of the deposited data

How the results depend on the processing

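Over 19 settings (all those tried except marker scaling), Lpl, Fabp3, Cd36, Slc25a20, Cpt2, Cpt1a and Des kept their direction and their call. Acsl1 had log2 folds of -0.020 under library totals, 0.15 under totals without mitochondrial genes and 0.089 under quantile normalization, and no call in these 3. Cpt1b stood at -0.48, -0.31 and -0.40 in the same 3, and 2 of the 8 genes were then lower. Without a variance trend Cpt1b (0.23) lost its call (limma adjusted p = 0.091). Leaving out each library gave Cpt1b 0.21 to 0.27 (limma adjusted p up to 0.11), Cd36 2.02 to 2.38, 6 to 7 genes higher, and over the lists 44 to 49 genes higher and 12 to 14 lower. Over the lists, 48 were higher and 14 lower on the deposited scaling, 22 and 34 under library totals, and 32 and 32 under totals without mitochondrial genes.

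Scaled to cardiomyocyte markers, chosen after the data were seen, Acsl1 stood at -0.83, Cpt1b at -1.29, Slc25a20 at -0.13 and Cpt2 at -0.41, with 3 of the 8 genes higher and 4 lower, and 4 and 68 over the lists. The cause of these differences was not tested. Library totals made 802 of all tested genes higher and 6892 lower, and totals without mitochondrial genes 1151 and 6253, against 3036 and 3459. With the replicate block the 8 calls were the same (Cpt1b 0.23, limma adjusted p = 0.047). Same-numbered libraries had correlations of 0.13, -0.07 and -0.17 in how they deviate from their group. These values show no common pairing by number but cannot exclude one. Any overlap in place of 50% also put 0 of the 8 genes in LADs. Cpt1a has the fewest reads of the 8 genes, so counting error bears most on it.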
